A study of Homo sapiens with 16 samples.

Results

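The genes described here are 35 zinc finger genes that lie side by side on human chromosome 19, in bands 19p12 and 19p13.11. The rule that picks them uses position and symbol and no measured value, although it was set with earlier results of these data known. All 35 were found among the 35993 gene symbols of the count table. RNA was measured in 16 libraries from 4 bladder cancer cell lines, with 2 libraries for each line and treatment. The lines were 253J, J82, RT112 and TCCSUP, all established lines labelled wild type, and each was given either CM-1758, an inhibitor of histone deacetylases, at the IC50 of that line, or vehicle with 0.01% DMSO, for 48 h. The dose of CM-1758 therefore differed between lines, and TCCSUP was grown in another medium than the other lines, so that line, dose and medium cannot be told apart when lines are compared.

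Most genes of this cluster encode proteins with a KRAB domain at one end and a row of C2H2 zinc fingers that read DNA at the other. The KRAB domain binds TRIM28 (also called KAP1), which brings the histone methyltransferase SETDB1, HP1 proteins and histone deacetylases to the bound DNA, and many of these proteins silence retroelements. The cluster grew by repeated duplication in primates, so its members are close copies of each other. In translated GENCODE v29 transcripts, 34 of the 35 genes held C2H2 fingers in their longest reading frame, between 8 and 36 each with a median of 13. ZNF208 held 36, ZNF729 34, ZNF91 31 and ZNF99 25, and no finger was found in ZNF738.

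Total counts per library ranged from 22506431 to 32537104, with a median of 28332731, and a count of 3, taken as the lowest level above a count of 0, corresponded to between 0.0981 and 0.119 CPM (counts scaled to the size of the library). Replicates of a group correlated at r = 0.983 to 0.991 across genes on the log2 CPM scale, a description across genes that are not independent. Of 16 urothelial markers, between 8 and 15 were above 3 counts in both libraries of a group, with summed levels of 519 to 8640 CPM. For 10 markers of leukocytes, endothelium, liver, islet and muscle, summed levels were 0.579 to 5.77 CPM in the controls of 253J, J82 and RT112, 21.7 CPM in the TCCSUP controls, and 9.19 to 23.2 CPM with CM-1758. INS was at 0 in every library, and the part of these markers in the results was not tested. These are bulk libraries, so fewer cells that express a gene and less RNA per cell cannot be told apart.

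Members were called in both directions. Apart from ZNF257, a run of neighbouring genes had few or no counts in untreated 253J, J82 and RT112 cells. ZNF208, ZNF676 and ZNF99 of the run rose with CM-1758 in each of these lines, and ZNF492, ZNF98 and ZNF728 in 1 or 2. Genes with so few counts could hardly fall, so these rises cannot be set against the falls of expressed members. The share of all genes at such levels that rose was not counted. In TCCSUP, where the run was expressed without drug, ZNF208, ZNF676, ZNF99, ZNF728 and ZNF729 rose. ZNF98 and ZNF492 were not called there and ZNF257 fell. The TCCSUP calls of ZNF676, ZNF99 and ZNF728 were lost with single libraries left out. Of members at 1 CPM or more in the controls, 16 of 27 fell in J82 and 15 of 27 in RT112, beside 28.5% and 31.1% of all such genes. In 253J 8 of 23 fell and in TCCSUP 7 of 34, beside 33.9% and 33.5%. The share that fell was thus above that of all such genes in J82 and RT112, near it in 253J and below it in TCCSUP. ZNF208 rose in all 4 lines, whereas ZNF714, ZNF675, ZNF726 and ZNF254 fell in all 4.

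The first question was how the cluster is expressed without drug. All 35 members were above 3 counts in both TCCSUP control libraries, but 9 members were at 3 counts or fewer in both 253J controls, 6 in both J82 controls and 7 in both RT112 controls. In each line a set of members was nevertheless well expressed, and 23 members were above 3 counts in every control library. Of the 35, 22 had their highest mean control level in J82, 9 in TCCSUP, 3 in RT112 and 1 in 253J. The 253J controls had the lowest mean of the lines for 18 members. The control level differed between lines for 33 of 35 members at an adjusted p under 0.01 (edgeR quasi-likelihood F test over 3 contrasts), beside 69.9% of all 21297 genes tested. Part of this was set by the filter on low counts, which a gene can pass through 1 group. ZNF99, ZNF728 and ZNF729, with few or no counts elsewhere, passed it through TCCSUP. With a filter of at least 10 counts in every library, 23 members remained and 21 differed.

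Divided by exon length, the members with the highest control level were ZNF714 in 253J (6.34 CPM per kb) and RT112 (11.3 CPM per kb), and ZNF91 in J82 (20.6 CPM per kb) and TCCSUP (8.41 CPM per kb). The next in J82 was ZNF738 at 19.2 CPM per kb. At the other end, ZNF729 was the lowest member in TCCSUP, at 0.212 CPM per kb.

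**Figure D1:**
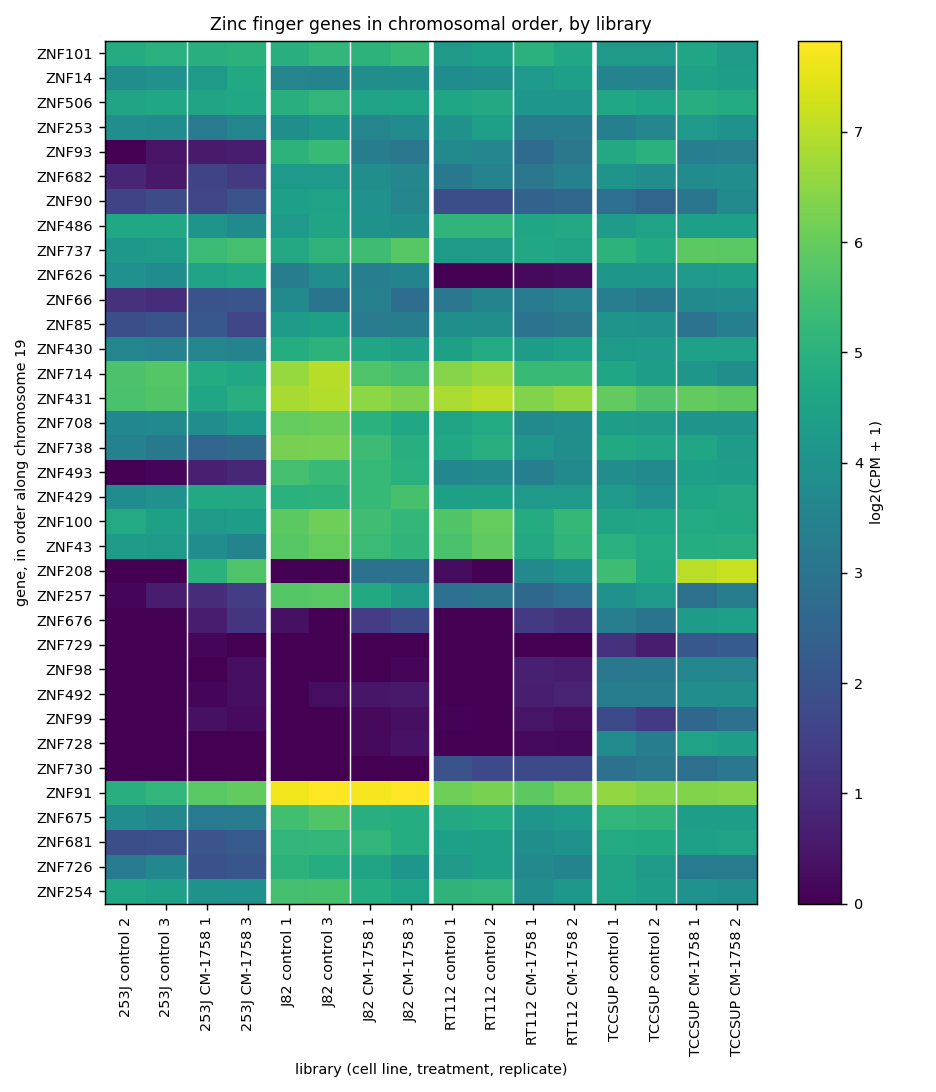
Level of each of the 35 genes, as log2(CPM + 1), in each of the 16 libraries, with genes in their order along chromosome 19 and columns grouped by line, treatment and replicate. The block of low values from ZNF208 to ZNF728 in untreated 253J, J82 and RT112, broken by ZNF257, is expressed in all TCCSUP libraries.

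The summed level of the 35 genes moved in different directions in the 4 lines. In 253J the controls were at 403 and 417 CPM and the treated libraries at 421 and 475 CPM. In J82 the controls were at 1200 and 1340 CPM and the treated libraries at 946 and 900 CPM. In RT112 the controls were at 737 and 833 CPM and the treated libraries at 536 and 596 CPM. Treated libraries were thus below controls in both of these lines. In TCCSUP the controls were at 739 and 670 CPM and the treated libraries at 829 and 838 CPM. Treated and control libraries did not overlap in any line, with treated over control ratios of 1.09 in 253J and 1.18 in TCCSUP, and of 0.728 in J82 and 0.721 in RT112. ZNF208 alone had a mean of 0 CPM in the 253J controls and 40.5 CPM with CM-1758, and of 33.8 and 135 CPM in TCCSUP. The mean sums went from 410 to 448 CPM in 253J and from 704 to 833 CPM in TCCSUP. The rises of the sum in these lines thus rested largely on this gene. These sums were not tested. With library size alone as the scale, in place of TMM factors, the ratios were 1.32, 0.806, 0.798 and 1.47. That scale raised the median log2 fold change of all genes by 0.27 in 253J and 0.31 in TCCSUP, and by 0.14 in J82 and 0.15 in RT112.

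**Figure D2:**
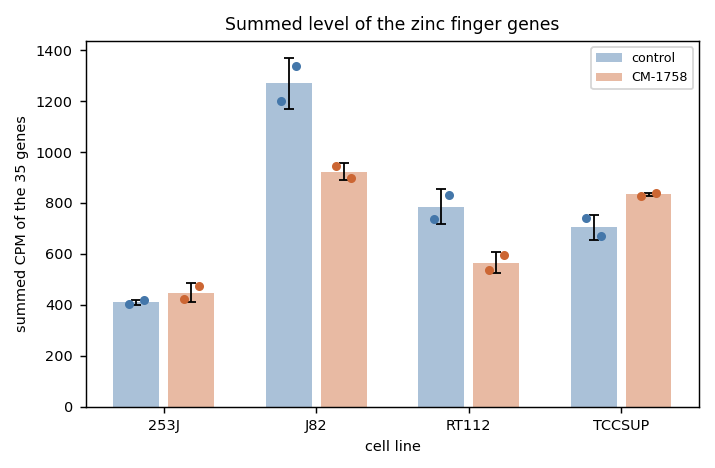
Summed CPM of the 35 genes in each line, control beside CM-1758; bars are means, points are the 2 libraries and error bars the SD. J82 controls, at 1200 and 1340 CPM, are the highest libraries, and the treated libraries of J82 and RT112 lie below their controls.

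Each gene was then compared between treated and control libraries within its line, and a gene was called at an adjusted p under 0.05 (edgeR quasi-likelihood test, Benjamini-Hochberg adjustment over all genes tested). In 253J, 13 members rose and 8 fell, against 28.8% and 22.4% of all genes. In J82, 6 rose and 16 fell, against 24.0% and 18.5%. In RT112, 10 rose and 15 fell, against 27.4% and 20.2%. The share of falling members in these lines was 45.7% in J82 and 42.9% in RT112, above the share among all genes. Of all genes at 1 CPM or more in the controls, where most members lie, more fell: 28.5% in J82 and 31.1% in RT112. In TCCSUP, 11 rose and 7 fell, against 32.0% and 22.1%. The median log2 fold change of the members was above 0 in 253J (0.32, beside 0.10 over all genes) and TCCSUP (0.17, beside 0.20), and below 0 in J82 (-0.37, beside 0.05) and RT112 (-0.20, beside 0.12). With members at 0 in the controls set to the bound given by 3 counts per library, and those at the floor in both groups left out, the medians were 0.28 in 253J and 0.17 in TCCSUP, -0.44 in J82 and -0.22 in RT112.

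These counts depended on single libraries and on the scale. Without J82 CM-1758 replicate 3, 3 members rose and 10 fell in J82. Without either RT112 control library, 6 rose in RT112. In TCCSUP, 5 rose without control replicate 2 and 6 without either CM-1758 library. With library size alone, 17 rose and 4 fell in 253J, 8 and 11 in J82, 11 and 11 in RT112, and 18 and 5 in TCCSUP.

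Calls past 4-fold (a log2 fold change of the model beyond 2 and an adjusted p under 0.01) were almost all upward. There were 5 such members in 253J, against 9.43% of all genes, 3 in J82 against 8.81%, 5 in RT112 against 11.4% and 1 in TCCSUP against 14.2%. Among them, ZNF99 in 253J, ZNF728 in J82 and ZNF626 in RT112 had 0 counts in both controls. With a floor of 3 counts per control library, their rises were at least 2.00-fold, 2.01-fold and 1.74-fold, which does not reach 4-fold. Downward, ZNF93 in J82 was the only member, and 0 members passed in 253J, RT112 and TCCSUP by this rule, where 8, 15 and 7 members fell at an adjusted p under 0.05 and DESeq2 also gave 0. Of all genes, 3.50% passed downward in 253J and 3.31% in TCCSUP, and 1.24% in J82 and 1.39% in RT112. Without J82 control replicate 3 or J82 CM-1758 replicate 3 the ZNF93 fall was not past 4-fold. Upward, 3 members passed in 253J without control replicate 2 or CM-1758 replicate 3, and 3 in RT112 without either control. Over the 4 lines, 34 of the 35 members were called at least once. Of these, 16 only rose, 15 only fell and 3 did both in different lines, while ZNF730 was called in no line. Counts over several lines were not made for all genes, so these numbers do not set the cluster apart. Many of all genes were called in each single line, by the shares given above.

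**Figure D3:**
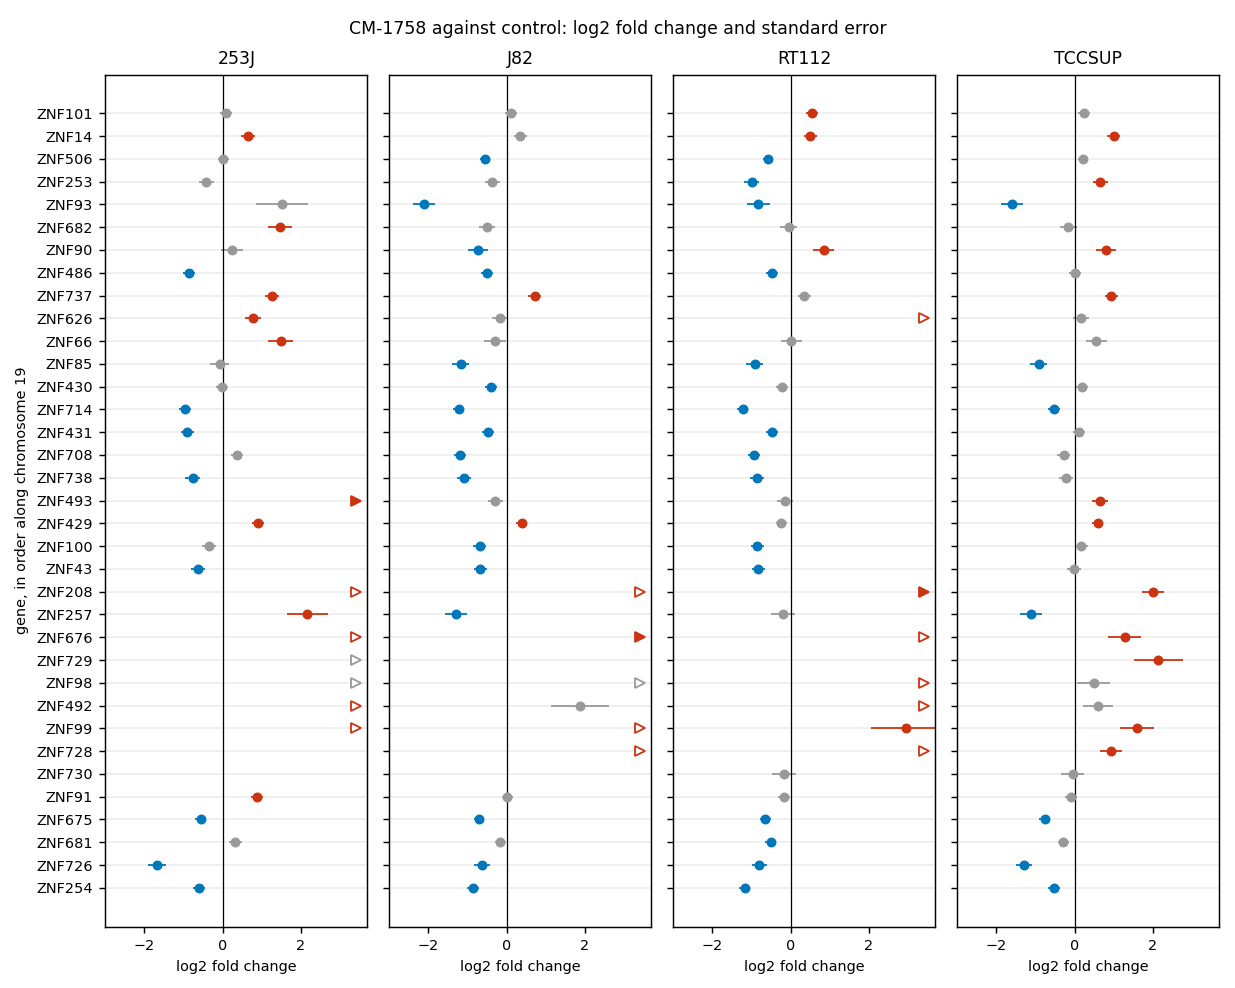
Log2 fold change of CM-1758 against control for the 35 genes in chromosomal order, with standard errors, in each line; red was called higher, blue lower and grey neither. Triangles mark values beyond 3.4 drawn at the edge or, when open, genes with 0 counts in both controls, and genes at 0 in all 4 libraries of a line have no point.

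The run from ZNF208 to ZNF728 holds 8 members in a row: ZNF208, ZNF257, ZNF676, ZNF729, ZNF98, ZNF492, ZNF99 and ZNF728. With ZNF257 left out, these genes together gave 0 and 0 counts in the 253J controls, 7 and 6 in the J82 controls, and 8 and 0 in the RT112 controls. In TCCSUP controls they gave 2117 and 1593 counts. With CM-1758 the same sum was 814 and 1534 in 253J, 246 and 298 in J82, 387 and 464 in RT112, and 5410 and 5514 in TCCSUP. Most of the gain belonged to ZNF208: without it the treated sums were 25 and 58 in 253J, 64 and 100 in J82, and 83 and 73 in RT112.

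ZNF208, the member with the most fingers of the run, gained the most counts of the run in each line. In 253J it had 0 counts in both controls and 789 and 1476 with CM-1758 (31.3 and 49.8 CPM). In J82 it had 0 in both controls and 182 and 198 with CM-1758 (6.52 and 6.70 CPM). In RT112 it had 6 and 0 in the controls and 304 and 391 with CM-1758 (11.9 and 14.9 CPM). Controls of these lines were at or near 0 and every treated library was far above them. In TCCSUP, where it was expressed without drug, it went from 1048 and 682 to 3440 and 3600 counts (41.5 and 26.1 to 129 and 142 CPM). Treated 253J cells held at least 363-fold more (adjusted p = 4.48e-08) and treated J82 cells at least 59.3-fold more (adjusted p = 2.09e-06), taking the floor of 3 counts per control library. The log2 fold change was 7.01 ± 0.53 (SE) in RT112 (adjusted p = 4.46e-07) and 2.00 ± 0.28 in TCCSUP (adjusted p = 6.31e-05). The TCCSUP value sits at the 4-fold limit and fell short of it without a filter on low counts. The effect differed between lines (F test of the interaction, adjusted p = 4.28e-06).

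The stretch just upstream of the ZNF208 start is shown because members with unlike responses share its parts. RefSeq promoter entries (build GRCh38.p14, 250 bases before to 50 after the start) matched 27 of the 35 members; ZNF98, ZNF99, ZNF253, ZNF506, ZNF676, ZNF728, ZNF729 and ZNF738 had none. Shown are the 120 bases before the start, 5′ to 3′ on the strand of the gene, for 4 members, taken by their mean change from those with 4-fold calls in 3 lines, with calls in opposite directions or with known retroelement targets. Capitals mark CCAATCAG, which contains the CCAAT box that the factor NF-Y is known to bind. ZNF208 lies at chr19:22010944-22011063 (minus strand), ZNF257 at chr19:22052364-22052483 (plus strand), ZNF93 at chr19:19900826-19900945 (plus strand) and ZNF90 at chr19:20077880-20077999 (plus strand).
ZNF208: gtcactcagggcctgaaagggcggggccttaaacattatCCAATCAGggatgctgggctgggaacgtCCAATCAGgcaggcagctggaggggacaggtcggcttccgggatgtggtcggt
ZNF257: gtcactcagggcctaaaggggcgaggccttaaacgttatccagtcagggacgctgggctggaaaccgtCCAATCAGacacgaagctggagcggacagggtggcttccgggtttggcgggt
ZNF93: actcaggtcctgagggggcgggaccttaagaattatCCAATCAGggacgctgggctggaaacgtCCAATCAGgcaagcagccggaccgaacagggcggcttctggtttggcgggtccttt
ZNF90: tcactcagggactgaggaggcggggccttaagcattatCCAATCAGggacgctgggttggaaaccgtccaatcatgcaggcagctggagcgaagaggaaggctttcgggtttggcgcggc

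CCAATCAG was found in all 27 member promoters, counted on both strands over the 300 bases, against 57 of 403 (14.1%) of those of other ZNF symbols and 4.16% of 27305 promoters. Of the 27, 13 held 2 copies and 14 held 1 on the strand of the gene, and the copy nearest the start began 23 to 84 bases before it. TGTCACTC was in 24 of 27 (88.9%), against 6.70% of other ZNF promoters and 1.36% of all. These letters were picked after the member promoters had been read. GGGCGG was in 20 (74.1%), against 62.8% of other ZNF promoters and 44.6% of all, and TATAAA in 3 (11.1%), against 2.48% and 12%. Aligned over 300 bases, the other promoters were 60.7% to 88.0% identical to that of ZNF208, with a median of 82.5%. ZNF208, which rose, and ZNF93, which fell in 3 lines, both held 2 copies 28 bases apart. A match of letters is a description and not a site of binding.

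ZNF676, which lies past ZNF257 from ZNF208, followed the pattern of ZNF208 at a lower level. It had 0 counts in both controls of 253J and 14 and 39 with CM-1758. In J82 it had 7 and 0 in the controls and 45 and 69 with CM-1758. In RT112 it had 0 in both controls and 39 and 32 with CM-1758. No control library of these lines reached a treated one. In TCCSUP it went from 232 and 187 to 510 and 522 counts. It was at least 8.37-fold higher in 253J (adjusted p = 0.000418) and at least 13.8-fold higher in RT112 (adjusted p = 0.000152). In J82 its log2 fold change was 3.87 ± 0.68 (adjusted p = 0.000535) and in TCCSUP 1.28 ± 0.42 (adjusted p = 0.0199). The TCCSUP call was lost when any one of that line's libraries was left out, with adjusted p between 0.0549 and 0.128.

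The remaining genes of the run stayed at a handful of counts outside TCCSUP. Over the whole table a count of 1 occurred 13099 times and a count of 2 occurred 18814 times, so a count may not be 1 independent fragment, and calls, bounds and intervals that rest on a few counts are less firm than they look. ZNF99 had 0 in both 253J controls and 7 and 5 counts with CM-1758, 0 in both J82 controls and 4 and 7 with CM-1758, and 2 and 0 in the RT112 controls and 9 and 6 with CM-1758. In TCCSUP it went from 61 and 39 to 141 and 165 counts. It rose in all 4 lines, by at least 2.00-fold in 253J, at least 1.70-fold in J82, 8.71-fold in RT112 (counting interval 2.02 to 78.5) and by 1.59 ± 0.44 on the log2 scale in TCCSUP. With each line fitted alone the adjusted p for ZNF99 (edgeR quasi-likelihood test) was 0.0502 in 253J, 0.114 in J82 and 0.0832 in RT112. The 253J call was also lost with the replicate block, and the J82 call without CM-1758 replicate 3. In RT112 the call was lost without control replicate 2 (2.07) or CM-1758 replicate 1 (2.63). The TCCSUP call was lost without control replicate 2 (1.28) or CM-1758 replicate 2 (1.43).

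ZNF492 had 0 counts in both 253J controls and 2 and 7 with CM-1758, 0 and 6 in the J82 controls and 11 and 13 with CM-1758, and 0 in both RT112 controls and 15 and 19 with CM-1758. In TCCSUP it went from 226 and 230 to 357 and 344 counts. It rose in RT112, by at least 6.57-fold (adjusted p = 0.000432), and in 253J, by at least 1.41-fold (adjusted p = 0.0214). Without either 253J control or without 253J CM-1758 replicate 3 the 253J call was lost, with adjusted p between 0.076 and 0.141. In J82 and TCCSUP the adjusted p was 0.059 and 0.198.

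ZNF98, the closest copy of ZNF492, had 0 counts in both RT112 controls and 16 and 13 with CM-1758, at least 5.62-fold higher (adjusted p = 0.00159). In 253J it had 0 in both controls and 0 and 7 with CM-1758, and in J82 0 in both controls and 0 and 2. In TCCSUP it went from 197 and 206 to 295 and 278 counts, a difference that was not called (log2 fold change 0.49 ± 0.42, adjusted p = 0.357). Treated libraries were above controls without overlap in RT112 and TCCSUP.

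ZNF728 gave no count in 253J, treated or not. It had 0 in both J82 controls and 4 and 9 counts with CM-1758 (at least 2.01-fold, adjusted p = 0.00446), and 0 in both RT112 controls and 4 and 3 with CM-1758 (at least 1.36-fold, adjusted p = 0.0129). In TCCSUP it rose from 324 and 236 to 577 and 506 counts, by 0.93 ± 0.29 on the log2 scale (adjusted p = 0.0188). The TCCSUP call was lost without control replicate 2 (adjusted p = 0.15) or without either CM-1758 library (0.0966 and 0.06). The J82 and RT112 calls of ZNF728 were lost with each line fitted alone (adjusted p = 0.0914 and 0.0968), and the RT112 call also without either control (0.0544 and 0.0501). Groups did not overlap in J82, RT112 and TCCSUP. ZNF729 was called only in TCCSUP, where it had 29 and 13 counts in the controls and 90 and 99 with CM-1758 (log2 fold change 2.14 ± 0.62, adjusted p = 0.0154). It was at 0 in all J82 and RT112 libraries and reached 2 counts in 1 treated 253J library.

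ZNF257, which stands inside the run, did not share its pattern. In J82 it was high without drug, at 1390 and 1538 counts, and fell to 722 and 543 with CM-1758 (log2 fold change -1.30 ± 0.28, adjusted p = 0.00149). In TCCSUP it fell from 379 and 469 to 171 and 223 counts (-1.12 ± 0.29, adjusted p = 0.00441). In RT112 it had 192 and 208 counts in the controls and 135 and 165 with CM-1758 (-0.20 ± 0.30, adjusted p = 0.618). It thus ran below or level with its controls in the lines that expressed it. In 253J it had 2 and 14 counts in the controls and rose to 25 and 50 (2.16 ± 0.52, adjusted p = 0.00268). The effect differed between lines (interaction, adjusted p = 0.000807).

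**Figure D4:**
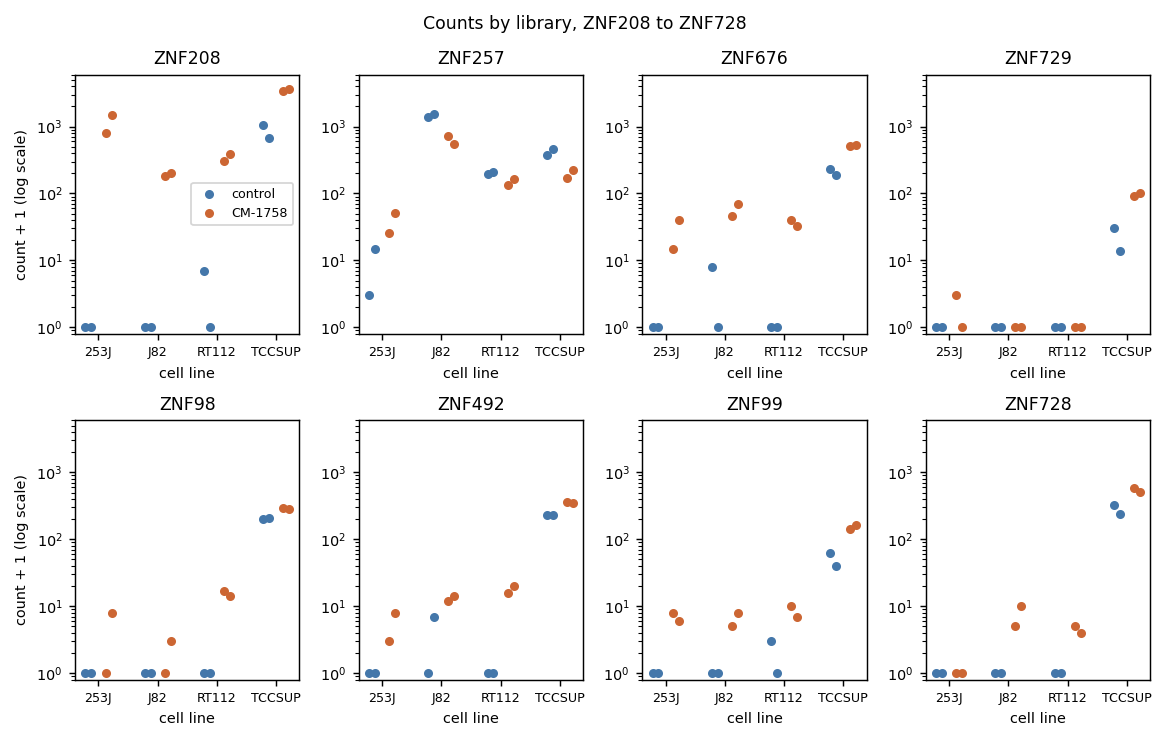
Count + 1 on a log scale in each library for the 8 neighbouring genes from ZNF208 to ZNF728, blue for control and orange for CM-1758, in the 4 lines. Apart from ZNF257, controls of 253J, J82 and RT112 lie at 0 to 7 counts, and TCCSUP lies above those controls for every one of the other 7 genes.

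Just beyond the run, ZNF730 was at 0 in the 8 libraries from 253J and J82, treated ones included. In RT112 it had 92 and 68 counts in the controls and 60 and 62 with CM-1758. In TCCSUP it had 172 and 198 in the controls and 170 and 191 with CM-1758. Its log2 fold change was -0.17 ± 0.31 in RT112 (adjusted p = 0.698) and -0.05 ± 0.29 in TCCSUP (adjusted p = 0.908). Its control level differed between lines (F test of the control level, adjusted p = 5.38e-08). That difference was largely set by the filter, which it passed through RT112 and TCCSUP alone, being at 0 in 253J and J82. A count of 0 allows up to 3 counts, about 0.1 CPM, in each of these libraries.

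The interval also holds ZNF723 and ZNF724, the other protein-coding zinc finger symbols in the table that lie between these members and are not among the 35. ZNF723 had 79 and 70 counts in TCCSUP controls and at most 2 in any control of the other lines, and with CM-1758 it had 61 and 67 in TCCSUP, 8 and 3 in RT112, 9 and 0 in J82 and 0 in both libraries of 253J. ZNF724 fell in all 4 lines, with log2 fold changes of -1.50 (253J), -0.92 (J82), -0.59 (RT112) and -0.80 (TCCSUP). With library size alone the RT112 value was -0.44 and was not called.

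Single members outside the run were also off in single lines. ZNF626 had 0 counts in both RT112 controls and 4 and 5 with CM-1758, at least 1.74-fold higher (adjusted p = 0.00313, or 0.0646 with RT112 fitted alone). Elsewhere it was well expressed in controls, at 399 and 339 counts in 253J, 229 and 373 in J82, and 424 and 426 in TCCSUP. With CM-1758 it had 546 and 744 counts in 253J, 256 and 312 in J82, and 466 and 501 in TCCSUP. Only the 253J libraries were apart enough to be called (log2 fold change 0.77 ± 0.20, adjusted p = 0.00572).

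ZNF493 was the member with the smallest p in the control level test (adjusted p = 5.11e-11). It had 0 and 2 counts in the 253J controls and 15 and 26 with CM-1758, 20.1-fold higher (counting interval 5.21 to 171, adjusted p = 6.29e-05). It had 1174 and 1033 counts in the J82 controls, 358 and 366 in RT112 and 343 and 324 in TCCSUP. With CM-1758 it had 1021 and 903 in J82, 240 and 325 in RT112 and 545 and 508 in TCCSUP. The TCCSUP rise passed the test (0.64 ± 0.20, adjusted p = 0.0133), and the J82 and RT112 values, -0.29 and -0.15, did not.

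253J controls were also low in ZNF93, ZNF682, ZNF66 and ZNF681, all well expressed in the other lines. In ZNF682 and ZNF66 the 253J values rose with CM-1758, by 1.46 ± 0.31 (adjusted p = 0.00104) and 1.48 ± 0.33 (adjusted p = 0.00171) on the log2 scale. ZNF681 had 75 and 73 counts in the 253J controls, against 902 and 973 in J82, 622 and 614 in RT112 and 673 and 670 in TCCSUP, and its control level differed between lines (adjusted p = 1.9e-10). With CM-1758 it had 81 and 109 counts in 253J, 956 and 816 in J82, 357 and 391 in RT112, and 554 and 560 in TCCSUP. It fell in RT112 (-0.51 ± 0.14, adjusted p = 0.00753), which was not called with library size alone (-0.36, adjusted p = 0.0526).

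ZNF91 and ZNF93 are the members with the best known targets: ZNF91 binds and silences SVA elements, and ZNF93 binds a set of LINE-1 elements. In 253J ZNF91 had 28.8 and 34.9 CPM in the controls and 55.6 and 61.0 CPM with CM-1758. In J82 it had 202 and 226 CPM in the controls and 210 and 225 CPM with CM-1758. In RT112 it had 68.0 and 75.4 CPM in the controls and 57.1 and 70.6 CPM with CM-1758. Only in 253J were treated libraries above the controls. In TCCSUP it had 93.7 and 81.3 CPM in the controls and 80.1 and 82.9 CPM with CM-1758. ZNF91 rose in 253J (log2 fold change 0.87 ± 0.15, adjusted p = 0.000175), and in the other lines its values were 0.02, -0.17 and -0.10, each within 0.2 of no change and with adjusted p from 0.372 to 0.964. The difference between lines passed the interaction test (adjusted p = 0.00217).

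ZNF93 fell in every line that expressed it. In J82 it had 32.4 and 38.9 CPM in the controls and 8.95 and 7.58 CPM with CM-1758. In TCCSUP it had 25.5 and 31.2 CPM in the controls and 9.13 and 9.52 CPM with CM-1758. In RT112 it had 12.3 and 11.3 CPM in the controls and 5.67 and 7.59 CPM with CM-1758. Treated and control libraries did not overlap in these 3 lines. In 253J, where it had 0 and 9 counts in the controls, it had 12 and 15 counts with CM-1758. The log2 fold change was -2.11 ± 0.28 in J82 (adjusted p = 3.52e-05), -1.60 ± 0.28 in TCCSUP (adjusted p = 0.000236), -0.83 ± 0.29 in RT112 (adjusted p = 0.0263) and 1.52 ± 0.66 in 253J, not called (adjusted p = 0.0683). The RT112 call was lost with library size alone (-0.68, edgeR quasi-likelihood test, adjusted p = 0.0721). On that scale the 253J value was called higher (1.79, adjusted p = 0.0351). Leaving out RT112 control replicate 1 (-0.77), control replicate 2 (-0.89) or CM-1758 replicate 1 (-0.64) also lost the RT112 call. The interaction F test had an adjusted p of 0.00248.

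Among members that reached 1 CPM on average in a line's controls, the share that fell was above that of all such genes in J82 and RT112, near it in 253J and below it in TCCSUP. In J82, 16 of 27 such members fell and 2 rose, where 28.5% of 13530 genes at that level fell and 21.1% rose. In RT112, 15 of 27 fell and 3 rose, where 31.1% of 13552 genes fell and 21.3% rose. In 253J, 8 of 23 fell and 6 rose, beside 33.9% and 26.7% of all such genes. In TCCSUP, 7 of 34 fell and 10 rose, beside 33.5% and 22.5% of all such genes. The median log2 fold changes of these members were lowest in J82 (-0.50) and RT112 (-0.48), against -0.12 and -0.13 over all such genes, and were -0.02 in 253J and 0.17 in TCCSUP, against -0.11 and -0.14. The falls of called members ran from -2.11 to -0.41 in J82 and from -1.23 to -0.48 in RT112.

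The 4 members that fell in all 4 lines were ZNF714, ZNF675, ZNF726 and ZNF254, the last 3 near the centromere end of the row. ZNF714 ran from -1.23 to -0.53 over the lines, ZNF675 from -0.77 to -0.56, ZNF726 from -1.68 to -0.63 and ZNF254 from -1.18 to -0.52. In each line, both treated libraries of these genes lay below both controls. As the genes were picked by their calls in these same libraries, this adds no separate support. Some of these calls were lost when 1 library was left out. ZNF714 in TCCSUP was -0.42 without control replicate 1 and -0.39 without CM-1758 replicate 2, and ZNF254 was -0.44 and -0.45. ZNF726 in J82 was -0.52 without control replicate 1 and -0.41 without CM-1758 replicate 3. With the replicate block ZNF675 in 253J was -0.44 (edgeR quasi-likelihood test, adjusted p = 0.114). With library size alone every value stayed below 0, but 0 members were called lower in all 4 lines: ZNF714 and ZNF254 were not called in TCCSUP, ZNF675 and ZNF254 not in 253J, and ZNF726 not in J82. At least 3 lines showed a fall for 10 members, among them ZNF85 (-1.18 in J82 and -0.92 in both RT112 and TCCSUP), ZNF738, ZNF43, ZNF431 and ZNF486. How many of all genes fell in at least 3 lines, or in all 4, was not counted, so these numbers have no background beside them. With library size alone only 4 members fell in at least 3 lines. ZNF431 and ZNF486 then lost their J82 and RT112 calls (adjusted p from 0.0873 to 0.118), and ZNF43 and ZNF738 their 253J calls (adjusted p = 0.1 and 0.0536). With RLE normalization ZNF486 also lost its J82 and RT112 calls (edgeR quasi-likelihood test, adjusted p = 0.0529 and 0.0504). ZNF431 lost its J82 call in the same way (adjusted p = 0.0568).

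At least 3 lines showed a rise for 7 members: ZNF208, ZNF676, ZNF99, ZNF728, ZNF14, ZNF737 and ZNF429. The same count over all genes was not made. ZNF14, ZNF737 and ZNF429 were expressed in all controls. ZNF737 rose by 1.26 ± 0.17 on the log2 scale in 253J, 0.72 ± 0.17 in J82 and 0.94 ± 0.17 in TCCSUP, with 0.35 ± 0.17 in RT112 (adjusted p = 0.107). ZNF14 rose by 0.65 in 253J, 0.50 in RT112 and 1.00 in TCCSUP. ZNF429 rose by 0.90 in 253J, 0.39 in J82 and 0.59 in TCCSUP. The interaction passed for ZNF429 (adjusted p = 0.00174) and not for ZNF14 or ZNF737 (adjusted p = 0.137 and 0.0303, against a threshold of 0.01). Several of these calls did not hold with 1 library left out. ZNF14 in 253J was 0.37 without CM-1758 replicate 3. In RT112 it was 0.46 and 0.55 without control replicates 1 and 2, and 0.38 without CM-1758 replicate 2. ZNF429 in J82 was 0.36 and 0.42 without control replicates 1 and 3. Without J82 CM-1758 replicate 3 it was 0.23, and ZNF737 in J82 was 0.49. With J82 fitted alone neither was called there (edgeR quasi-likelihood test, adjusted p = 0.223 and 0.0512). Without a filter ZNF429 in J82 was not called either (adjusted p = 0.0628).

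Opposite calls in different lines were found for 3 members: ZNF257, described above, ZNF253 and ZNF90. How many of all genes had opposite calls was not counted. ZNF253 had 469 and 601 counts in the RT112 controls and 230 and 232 with CM-1758 (log2 fold change -1.0 ± 0.20, adjusted p = 0.000698). In TCCSUP it had 238 and 293 in the controls and 473 and 381 with CM-1758 (0.66 ± 0.19, adjusted p = 0.00964). The groups did not overlap in either line and lay in opposite order, the pattern by which this member was picked. In 253J it had 371 and 341 counts in the controls and 218 and 330 with CM-1758, and in J82 363 and 453 against 302 and 374, neither called. The interaction had an adjusted p of 0.0011. The TCCSUP call was lost without TCCSUP control replicate 1 (adjusted p = 0.0876) or CM-1758 replicate 1 (adjusted p = 0.0822).

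ZNF90 had 541 and 598 counts in the J82 controls and 411 and 315 with CM-1758 (log2 fold change -0.74 ± 0.25, adjusted p = 0.0277). It had 83 and 79 in the RT112 controls and 119 and 131 with CM-1758 (0.84 ± 0.28, adjusted p = 0.0214), and 158 and 128 in the TCCSUP controls and 199 and 304 with CM-1758 (0.80 ± 0.26, adjusted p = 0.0185). In 253J it had 55 and 64 counts in the controls and 54 and 91 with CM-1758, which overlap. The J82 fall was not called with RLE normalization (-0.65, adjusted p = 0.0512), with library size alone (-0.59, adjusted p = 0.0862) or with DESeq2 (-0.65, adjusted p = 0.0573), and the RT112 rise was lost when any one RT112 library was left out. The TCCSUP rise of ZNF90 was lost without control replicate 2 (0.63, adjusted p = 0.134) or CM-1758 replicate 2 (0.42, adjusted p = 0.257).

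In all, the effect of CM-1758 differed between lines for 14 of 35 members (40.0%) at an adjusted p under 0.01, close to the 36.6% of all genes tested.

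Genes of the KRAB silencing machinery, taken from a list of 21 of which 20 were tested, fell more often than they rose. In 253J 12 fell and 3 rose, in J82 9 fell and 0 rose, in RT112 12 fell and 2 rose, and in TCCSUP 10 fell and 2 rose. The share that fell was 60%, 45%, 60% and 50% in these lines, beside 22.4%, 18.5%, 20.2% and 22.1% of all genes. Of all genes at 1 CPM or more in a line's controls, more fell: 33.9%, 28.5%, 31.1% and 33.5%. The difference between the list and these shares was not tested. TRIM28, the KRAB corepressor, fell in all 4 lines, with log2 fold changes of -1.07 (253J), -0.77 (J82), -0.91 (RT112) and -0.74 (TCCSUP), each with an SE of 0.15. SETDB1, the H3K9 methyltransferase, fell by 0.69 in 253J, 0.70 in J82 and 0.62 in RT112 on the log2 scale. In TCCSUP its value was -0.04 (0.27 with library size alone). CHD3, a remodeller of the NuRD complex, fell by more than 4-fold in all 4 lines (-2.36, -2.10, -2.47 and -3.08), although -1.95 in J82 with library size alone. The deacetylase gene HDAC1 rose in 253J (0.67 ± 0.15), and HDAC2 was called in no line, with J82 at 0.43 ± 0.17, called with library size alone at 0.57.

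Genes derived from retroelements, of which 11 in a list of 14 were tested, rose more often than they fell. In 253J 5 rose and 0 fell, in J82 4 and 0, in RT112 5 and 1, and in TCCSUP 8 and 1. The share that rose was 45.5%, 36.4%, 45.5% and 72.7%, beside 28.8%, 24.0%, 27.4% and 32.0% of all genes, and with 11 genes each gene is 9.09% of the list. The 2 that rose in every line were ERV3-1, an endogenous retrovirus envelope gene (log2 fold changes 0.67, 1.34, 0.56 and 1.46), and PEG10, a gag-pol derived gene (1.15, 1.72, 1.13 and 2.03). Both were singled out after their values had been seen. Retroelement copies in the genome were not analysed here.

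The neighbours of the cluster were counted in the same way. Of 20 genes that flank it, both sides together, 17 were tested: 5 rose and 3 fell in 253J, 4 and 5 in J82, 2 and 8 in RT112, and 3 and 6 in TCCSUP. The share that rose was 29.4%, 23.5%, 11.8% and 17.6%, beside 28.8%, 24.0%, 27.4% and 32.0% of all genes, and the share that fell 17.6%, 29.4%, 47.1% and 35.3%, beside 22.4%, 18.5%, 20.2% and 22.1%. Their medians, 0.09, -0.18, -0.28 and -0.08, had the sign of the members' medians in the first 3 lines. NCAN, a brain proteoglycan gene, had 0 counts in the controls of J82, RT112 and TCCSUP and at least 7, 150 and 78 counts with CM-1758. CILP2, a cartilage matrix gene, rose in the same 3 lines by 2.46, 2.18 and 2.17.

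Other lists of zinc finger genes on chromosome 19 give a comparison. Of 35 at 19p13.2, 17 rose and 4 fell in 253J, 6 and 11 in J82, 5 and 12 in RT112, and 11 and 4 in TCCSUP. Of 35 at 19q13.41, 29 rose and 0 fell in 253J, with 20 past 4-fold and a median of 2.64, but 9 rose and 6 fell in J82, 5 and 8 in RT112, and 13 and 4 in TCCSUP. Of 26 at 19q13.12, 21 rose and 1 fell in 253J, 6 and 5 in J82, 7 and 2 in RT112, and 6 and 4 in TCCSUP. Of 20 at 19q13.31, 14 rose and 0 fell in 253J, 12 and 0 in J82, 8 and 1 in RT112, and 8 and 1 in TCCSUP. Over the 492 other ZNF symbols tested the medians were 0.42 in 253J and 0.26 in TCCSUP, and -0.03 in J82 and -0.04 in RT112. In J82 and RT112, 23.2% and 22.4% of them fell, against 45.7% and 42.9% of the cluster. The differences between these lists were not tested, and the lists were not matched for control level.

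Because the members are copies of each other, part of their sequence could not be assigned to 1 gene by short reads. In GENCODE v29 transcripts, ZNF98 shared 22.6% of its stretches of 100 bases with ZNF492, and ZNF492 17.8% with ZNF98. No other member shared as much as 1% with another member at that length. At 50 bases the shares were 37.6% and 29.4% for this pair, 7.15% of ZNF729 with ZNF99 and 5.40% of ZNF676 with ZNF208. ZNF90 shared 6.59% and ZNF626 3.91% of their 100-base stretches with genes outside the cluster. Counts of ZNF98 and ZNF492 are therefore uncertain relative to each other, while ZNF208, with 0.057% shared at 100 bases, shared little with any member.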

How the data were processed

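RNA of 16 samples was sequenced. The authors deposited 1 table of raw counts per gene symbol and library, and the processing notes name HISAT2, StringTie and the build GRCh37, with no versions. The annotation, and how counts were derived and shared reads treated, are not given in the sources used here, so gene coordinates are not printed. Columns were tied to samples through the sample titles, and 0 columns were left unused. The paper describes the 2 libraries of a group as independent biological replicates, so p-values measure the spread between such replicates of a line.

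Genes were filtered with filterByExpr over 8 groups, which left 21297 including all 35 members, scaled by TMM and fitted in 1 model (edgeR 4.0.16, limma 3.58.1, R 4.3.3) with the quasi-likelihood F test and Benjamini-Hochberg adjustment over all genes. Calls were made at an adjusted p under 0.05, 4-fold calls at a log2 fold change beyond 2 and an adjusted p under 0.01, and tests over 3 contrasts at 0.01. The common biological coefficient of variation was 0.153 with 8 residual degrees of freedom. CPM uses TMM-scaled totals, and means are over 2 libraries. A fold against controls at 0 uses a floor of 3 counts per library, and counting intervals are exact at 95%, treat each count as 1 independent fragment, and cover counting error only. Whether a count holds both reads of a pair was not resolved. The code was tested on simulated data.

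The members and the lists were chosen with earlier results of these data known. Values of every library are given for members with 4-fold calls in 3 or more lines, opposite calls, known targets, the 5 smallest p of the control level test, or at most 3 counts in both controls of 1 line and 1 CPM or more in another; the sums, ZNF729, ZNF723 and the rest were added after values had been seen. Alternatives were RLE (as in DESeq2 1.42.0), library size alone, DESeq2, each line alone, other filters, 7 small noncoding RNA genes left out, a replicate block, and each library left out. Exon length, sharing of sequence and zinc fingers (the C2H2 spacing pattern in the longest reading frame) came from GENCODE v29, and promoters from RefSeq.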

Additional observations from a re-analysis of the deposited data

Results flagged for a closer look

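For 14 members the effect of CM-1758 differed between the 4 lines in the interaction F test (edgeR, adjusted p under 0.01). The adjusted p was 4.28e-06 for ZNF208, 0.000131 for ZNF708, 0.000269 for ZNF493, 0.000807 for ZNF257, 0.0011 for ZNF253, 0.00174 for ZNF429, 0.00217 for ZNF91, 0.00248 for ZNF93, 0.00262 for ZNF676, 0.00312 for ZNF506, 0.00333 for ZNF682, 0.0051 for ZNF626, 0.00625 for ZNF90 and 0.00631 for ZNF492. Of those not shown library by library above, ZNF708 had log2 fold changes of 0.37 (253J), -1.20 (J82), -0.94 (RT112) and -0.28 (TCCSUP). In the same order ZNF506 had 0.02, -0.56, -0.59 and 0.21, and ZNF682 had 1.46, -0.50, -0.05 and -0.16. For ZNF208, ZNF676, ZNF492 and ZNF626, with 0 counts in both controls of at least 1 line, the size of the difference rests on the floor. Groups of 2 libraries are too small to look for a library that stands apart.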

How the results depend on the processing

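The 75 calls tracked for single members were compared with the alternatives 872 times: the call was lost in 103 comparisons and changed direction in 0. With RLE normalization or DESeq2 the member medians were 0.37 in 253J and 0.22 in TCCSUP. With library size alone 4 members fell in 253J and 18 rose in TCCSUP, 4-fold calls were 0 downward in J82 and 2 upward in TCCSUP, medians were 0.60 and 0.48 in 253J and TCCSUP, and the summed CPM ratios were 1.32, 0.806, 0.798 and 1.47. Without a filter, or without the small noncoding RNA genes, TCCSUP had 0 members past 4-fold, as ZNF208 sits at the limit. At 10 or more counts in every library 23 members remained; 7 rose in 253J (median 0.06), 3 in J82 and 4 in RT112, 0 passed 4-fold in any line and 21 differed in control level. With each line alone 3 members passed 4-fold in 253J, 2 rose in J82 and the TCCSUP median was 0.14.

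Replicate numbers of the 2 arms were not taken to pair the samples, as correlations of deviations were 0.0173 to 0.218 and not all over 0.1. With 2 libraries per group each line gives only 1 such value, highest in J82 at 0.218. These values cannot show whether libraries with the same number came from 1 experiment. With the replicate block 3 members passed 4-fold in 253J, against 5 without it, and calls in 253J were 12 higher and 6 lower.

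Leaving out 1 library at a time gave 3 to 5 members past 4-fold in 253J (median 0.20 to 0.42), 3 to 6 rising, 10 to 14 falling and 0 to 1 past 4-fold downward in J82, 6 to 8 rising and 3 to 5 past 4-fold in RT112, and 5 to 9 rising, 0 to 1 past 4-fold, a median of 0.15 to 0.19 and a summed ratio of 1.13 to 1.24 in TCCSUP. Lone libraries were assumed to vary like the other groups. The causes were not tested. Calls that rest on a few counts lie close to the floor of 3 counts.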
